A study of Homo sapiens with 83 samples.

Results

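Cells of the human neuroblastoma line SHEP N-MYC-ER with N-MYC active were compared late and early in a culture time series, to ask which transcripts drifted over the days of sampling rather than cycled. The members were 16 of the 83 libraries of the series, chosen by their labels alone. They were 8 late libraries, taken at circadian time (CT) 64, 68, 72 and 76 in each of 2 replicate time series, and 8 early libraries, taken at CT24, CT28, CT32 and CT36 in the same series. CT counts the hours after dexamethasone, a glucocorticoid that sets the clocks of cultured cells to a common phase.

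SHEP is an established line of the mesenchymal type of neuroblastoma. The cells express N-MYC-ER throughout, a fusion of N-MYC with the ligand-binding part of the estrogen receptor that enters the nucleus when 4-hydroxytamoxifen (4OHT) is given. All 16 libraries came from cells given 4OHT (MYC-ON) 24 h before dexamethasone, so the early window already followed prolonged N-MYC activity. Beside them stood the 16 libraries of the same line at the same CTs given ethanol vehicle in place of 4OHT (MYC-OFF), which also carried N-MYC-ER and also received dexamethasone. Hours since plating, since 4OHT and since dexamethasone advance together in this design and cannot be told apart. The CTs of a series stood in as replicates of a window and there were only 2 series, so the p-values measure the spread between these libraries. The windows lay 40 h apart and therefore not at matched hours of the day, which is why a comparison exactly 48 h apart was also made.

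MYC proteins bind DNA with MAX and raise genes of ribosome production, nucleotide synthesis and cell-cycle entry. Dividing cells switch on replication genes through E2F factors in late G1 and mitotic genes through the FOXM1 and MYBL2 complexes in G2, and both sets are low in cells that have left the cycle. Ribosomal protein mRNAs carry a run of pyrimidines at their very start through which growth signals control their translation and their stability.

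The deposited values were transcript abundances (TPM), scaled by transcript length and to the same total in each library, so the depth behind each value is unknown. Of the mesenchymal neuroblastoma markers 10 of 10 had a median of at least 1 TPM, with a summed level of 4714 to 5553 TPM early and 4737 to 5535 TPM late. Of the 10 adrenergic markers 3 reached that level (HAND2, GATA2 and GATA3), and PHOX2A was listed at 0 in all 16 libraries. No endothelial (0 of 4) or haematopoietic (0 of 5) marker reached a median of 1 TPM, and KRT8 and KRT18 were the 2 of 5 epithelial markers that did. MYCN, which reads out mostly the constitutively made fusion and not its activity, was 328 to 499 (median 380.4) TPM early and 255 to 515 (median 334) TPM late (-0.23 ± 0.12, adjusted p = 0.106), a change that did not pass the test. In MYC-OFF its median was higher, at 541 TPM early and 621 TPM late, and it rose (0.23 ± 0.07, adjusted p = 0.0345). The conditions differed by -0.46 in this change (adjusted p = 0.0101), a difference not called without 3 GC-biased libraries described below (-0.31). MYC itself was 0.801 to 6.45 (median 1.58) TPM early and 2.05 to 5.33 (median 3.93) TPM late in MYC-ON, against a median of 12.1 TPM early and 10.1 TPM late in MYC-OFF. Its fitted rise of 0.63 ± 0.24 came from replicate 2 (1.21, against 0.05 in replicate 1) and was not called without the 3 GC-biased libraries described next (adjusted p = 0.315).

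A bias touched 3 of the 8 late libraries. In replicate 2 at CT64, CT68 and CT72 genes rich in G and C read low, with a slope down to -0.256 on log2 per 10 points of GC content, while the other late MYC-ON libraries lay between 0.0004 and 0.0625 and the early ones between -0.031 and 0.055. For this reason a gene was called only when the adjusted p from limma, a linear model fitted across all genes, was at most 0.05, the change was at least 0.15 on the log2(TPM + 1) scale and replicate 1 alone had the same sign. Counts are also given without the 3 libraries. Changes are given as log2 of late over early with the standard error of the fit, and levels as the median TPM of the 8 libraries of a window with their lowest and highest values, or as the range with its median.

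Late MYC-ON cells differed from early ones in 7291 of 14285 genes tested (51%). Of these 2535 (17.7% of the genes tested) were higher late and 4756 (33.3%) lower, so 34.8% of the calls were higher. The counts of called members in each list below are to be read against these shares. A change of at least 1.5-fold was called for 619 genes that rose (4.33%) and 1046 that fell (7.32%). In 684 genes (4.79%) all 8 late libraries lay above all 8 early ones, and in 1593 genes (11.2%) all lay below. The median over all genes was -0.09, and rescaling the libraries by the median of ratios moved it to 0.01 and the share of calls that were higher to 49.8%. Removing the GC trend of each library gave 49.9%. Without the 3 biased libraries 2516 genes were higher (17.6%) and 5016 lower (35.1%).

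Most genes changed in the same direction in the 2 series, 72.2% of all genes tested. Of the 7291 called genes 7262 (99.6%) had the same sign in replicate 2 alone. Those libraries were part of the fit that made the calls, so this share was bound to be high and is no separate support. In replicate 2 fitted alone 4485 of the 7291 (61.5%) were called with the same sign. Across the 14285 genes, which are not independent, the change in replicate 1 and in replicate 2 had a Pearson r of 0.59 and a Spearman rho of 0.60. Genes called higher had a median GC content of 45.7% and genes called lower 51.0%, around 47.7% for all genes tested. Without the 3 libraries these medians were 49.0% and 47.5%, so the order turned over. Long non-coding RNAs made up 13.1% of the genes called higher and 5.72% of those called lower, against 10.4% of the genes tested.

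**Figure D1:**
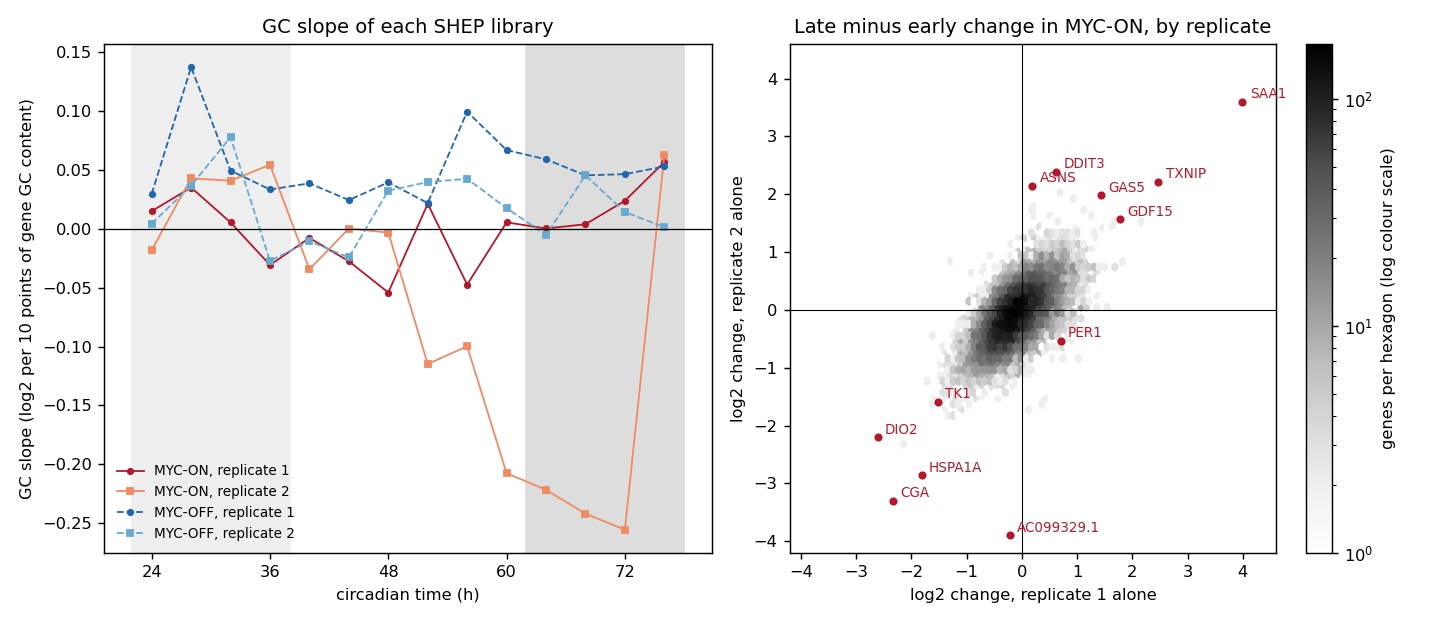
Left, the GC slope of each SHEP library (log2 per 10 points of gene GC content) against circadian time in hours, by condition and replicate, with the early and late windows shaded. MYC-ON replicate 2 drops to -0.256 before CT76. Right, the late minus early log2 change of each gene in MYC-ON in replicate 1 alone against replicate 2 alone, drawn as hexagons shaded by the number of genes on a log colour scale, with some named genes labelled. Most named genes lie near the diagonal (SAA1 at 3.99 and 3.60), while DDIT3, ASNS (0.19 and 2.15), PER1 (0.70 and -0.53) and AC099329.1 (-0.22 and -3.90) lie off it.

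Cell division genes fell as a group, and the replication list had the largest median change of the lists examined. Of 47 DNA replication genes 41 fell and 0 rose, and of 50 mitosis genes 41 fell and 0 rose, with medians of -0.74 and -0.55 against -0.09 for all genes. In the replication list all late libraries lay below all early ones for 31 genes, and in the mitosis list for 18. The medians were -0.88 and -0.57 in replicate 1 alone, and 45 and 47 genes fell without the 3 biased libraries. The mean level of the replication list per library was 5.10 to 5.27 on log2 early (median 5.14), 5.02 at the median of the 12 libraries between the windows, and 3.97 to 4.81 late (median 4.39). That of the mitosis list went from 5.09 to 5.33 early (median 5.24) to 4.27 to 5.08 late (median 4.72). The replication mean went from 5.10 at CT24 to 4.72 at CT60 and 3.97 at CT76 in replicate 1, and from 5.11 to 4.95 and 4.16 in replicate 2, and both lists were lowest at CT76 in both series. In these bulk samples fewer dividing cells and less of these mRNAs per cell cannot be told apart.

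Fewer of these genes changed in vehicle-treated cells over the same hours, and those called rose. In MYC-OFF 20 of the 47 replication genes rose and 0 fell (4.84% of all genes tested rose there and 6.87% fell), with a median of 0.19, and 17 of the 50 mitosis genes rose and 0 fell, also with a median of 0.19. The difference between the conditions, tested as an interaction over 32 libraries, was called for 5521 of 14376 genes (38.4%), 1908 with a difference above 0 (13.3%) and 3613 below 0 (25.1%). It was called below 0 for 42 of the 47 replication genes and 48 of the 50 mitosis genes and above 0 for none of them. The median replication level was 5.14 in MYC-ON and 4.83 in MYC-OFF early, and 4.39 against 5.03 late, so the order of the conditions turned over.

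TK1 (ENSG00000167900, chr17:78174091-78187233, minus strand), the thymidine kinase of S phase, ran at 112 to 154 (median 129.6) TPM early and 27.6 to 71 (median 44) TPM late (-1.56 ± 0.16, adjusted p = 7.39e-07). The windows did not overlap, and MYC-OFF medians were 128 and 132 TPM. E2F1, the G1 to S transcription factor, fell from a median of 19.4 TPM (15.8 to 23.4) to 6.87 TPM (4.69 to 9.2) (-1.37 ± 0.12). UHRF1, which carries DNA methylation through replication, fell from a median of 66.6 TPM (58.4 to 72) to 23.7 TPM (21.2 to 33.3) (-1.32 ± 0.09, adjusted p = 2.30e-08). FEN1, the flap nuclease of lagging-strand synthesis, fell from a median of 103 TPM (96.9 to 120.3) to 42.3 TPM (28.4 to 58.5) (-1.27 ± 0.12). Each of these genes had all late libraries below all early ones and changed by nearly the same amount in the 2 series.

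FOXM1 (ENSG00000111206, chr12:2857680-2877174, minus strand), the activator of G2 and M genes, ran at 56.3 to 64.8 (median 59.7) TPM early and 17 to 36.3 (median 24) TPM late (-1.24 ± 0.12, adjusted p = 3.89e-07), and its MYC-OFF medians were 51.7 and 54.3 TPM. CDC20, the activator of the anaphase-promoting complex, fell from a median of 120.2 TPM (115 to 133) to 56.7 TPM (36.1 to 79.4) (-1.14 ± 0.12). BIRC5, or survivin, fell from a median of 104 TPM (92 to 123) to 50.4 TPM (36 to 63.6) (-1.08 ± 0.11). None of these 3 had an early library within its late range. ASPM, a spindle pole protein, was low throughout and fell from a median of 6.41 TPM (5 to 8.45) to 2.93 TPM (1.31 to 4.65) (-0.94 ± 0.15, adjusted p = 6.49e-05).

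Regulators of G1 were mixed, with 3 of 18 higher (16.7%, against 17.7% of all genes) and 11 lower (61.1%, against 33.3%), and a median of -0.36. The CDK-activating phosphatase CDC25A fell by 1.08 ± 0.09 on log2, from a median of 22.5 TPM (20.1 to 24.5) to 10.1 TPM (7.57 to 13.1). SKP2, which marks p27 for destruction, fell from a median of 31.2 TPM (28.9 to 35.1) to 14 TPM (11.4 to 21.8) (-0.999 ± 0.11), and CDK4, a G1 kinase and a known MYC target, from a median of 417 TPM (351 to 446) to 264 TPM (168 to 309) (-0.72 ± 0.10). CDKN2C, an inhibitor of CDK4, also fell, from a median of 11.4 TPM (10.47 to 14.4) to 5.91 TPM (3.15 to 9.35) (-0.97 ± 0.13). Cyclin D2 (CCND2) went the other way from a very low level, 0.786 to 1.31 (median 0.962) TPM early and 1.85 to 3.96 (median 2.97) TPM late (1.01 ± 0.11), with no overlap. In MYC-OFF 1 of the 18 genes rose and 0 fell, and the interaction was called above 0 for 1 and below 0 for 12.

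**Figure D2:**
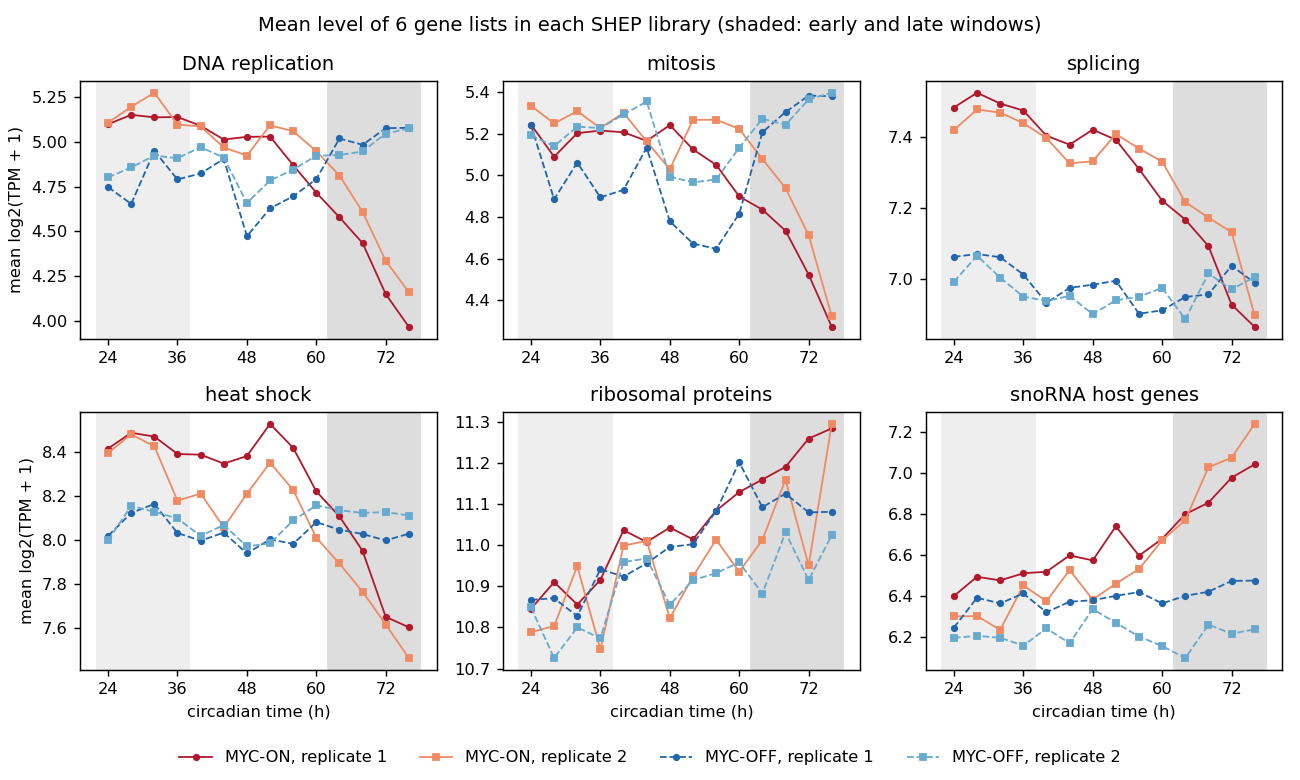
Mean log2(TPM + 1) of 6 gene lists in each SHEP library against circadian time in hours, 1 line per condition and replicate, with the early and late windows shaded. In MYC-ON the DNA replication, mitosis, splicing and heat shock lists are lowest at the end of the series and the snoRNA host list is highest, while the first 2 lists are higher late than early in MYC-OFF (replication median 4.83 early and 5.03 late).

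Words known to be read by regulators of these 2 lists were common in their promoters. Over the 300 bases around the start (RefSeq, GRCh38.p14, 250 before and 50 after), 23 of the 39 replication genes with a listed promoter (59.0%) held an E2F word on either strand (TTTCCCGC, TTTGGCGC, TTTCGCGC or TTTCGCGG), against 6.75% of the 10169 genes tested that had a listed promoter. The cell-cycle homology region word TTTGAA was in 30 of 41 mitosis promoters (73.2%, against 13.7%), and CCAAT in 32 of 41 (78%, against 43.7%). The E2F words of UHRF1 and the TTTGAA word of CDC20 are shown in capitals as examples, while CCAAT, present in both windows, is left in lower case. The windows run up to 120 bases before the start of UHRF1 (chr19:4909381-4909500, plus strand) and of CDC20 (chr1:43358861-43358980, plus strand).
UHRF1: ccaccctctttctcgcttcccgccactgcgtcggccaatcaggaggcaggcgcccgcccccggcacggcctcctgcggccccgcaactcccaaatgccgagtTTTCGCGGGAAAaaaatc
CDC20: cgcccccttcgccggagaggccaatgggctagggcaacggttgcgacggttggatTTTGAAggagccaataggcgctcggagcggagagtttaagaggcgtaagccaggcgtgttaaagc
In UHRF1 the capitals hold 2 overlapping E2F words, TTTCGCGG from 18 bases before the start and, on the opposite strand, TTTCCCGC over the 8 bases from 14 before it. In CDC20 the capitals begin 65 bases before the start. These windows and words were chosen after the values had been seen, and a match is a description of the letters only.

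Canonical MYC targets declined. Of 30 listed targets 22 fell (73.3%, against 33.3% of all genes) and 1 rose (FBL, named after its value was seen). The median was -0.30 (-0.41 in replicate 1, -0.21 in replicate 2). With the GC trend removed 15 fell and 1 rose (median -0.18, against 0.004 for all genes). After median-of-ratios rescaling 16 fell and 2 rose (median -0.19, against 0.007). The mean level of the 30 targets per library was a median of 7.89 on log2 early, 7.80 between the windows and 7.59 late, and stayed above the MYC-OFF medians of 6.90 and 6.87. The interaction was called below 0 for 18 of the 30 and above 0 for none. SLC19A1, the folate carrier, fell from a median of 33 TPM (30.4 to 39.8) to 18.4 TPM (12.5 to 25.3) (-0.84 ± 0.12). ODC1, the rate-limiting enzyme of polyamine synthesis, went from 476 to 701 (median 631) TPM early to 315 to 492 (median 422) TPM late (-0.58 ± 0.09), with overlap in 1 early library. MXI1, an antagonist of MYC at MAX, rose from a median of 43.4 TPM (39.1 to 51.7) to 64.9 TPM (58.7 to 75.9) (0.56 ± 0.07, adjusted p = 3.13e-06), with no overlap. It was the 1 of 9 MYC network genes called higher (11.1%, against 17.7% of all genes), while 4 were lower (44.4%, against 33.3%).

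Of 46 ribosome biogenesis factors 28 fell and 4 rose (median -0.26), with a median of -0.40 in replicate 1 and -0.10 in replicate 2 against -0.11 and -0.07 for all genes. With the GC trend removed 18 fell and 5 rose (median -0.13). RRS1, an assembly factor of the large subunit, fell from a median of 88.8 TPM (77.9 to 98.1) to 52 TPM (48.1 to 59.8) (-0.72 ± 0.06, adjusted p = 9.99e-08) without overlap. Of 76 ribosomal protein genes 63 rose and 1 fell (RPS26, named after its value was seen), with a median of 0.34 (0.34 in replicate 1 alone and 0.33 in replicate 2 alone). The fall of RPS26 was -0.10 in replicate 1 and -1.05 in replicate 2. Their summed level took 14.2% to 16.3% of all TPM early (median 15.2%), 17.02% at the median between the windows and 16.8% to 21.2% late (median 19.3%). Ribosomal proteins also rose in MYC-OFF, 57 of 76 with a median of 0.20 and a share of 15.2% early and 17.8% late. The interaction was called above 0 for 26 and below 0 for 2.

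RPL12, a large subunit protein (ENSG00000197958, chr9:127447674-127451406, minus strand), ran at 1915 to 2174 (median 2014) TPM early and 2859 to 3814 (median 3042) TPM late (0.66 ± 0.06, adjusted p = 3.92e-07), against MYC-OFF medians of 2250.0 and 2627 TPM. RPS6, the small subunit protein phosphorylated downstream of mTOR, rose from a median of 1777 TPM (1342 to 1923) to 2611 TPM (2147 to 3240.1) (0.62 ± 0.09). The windows did not overlap for either gene. RPS15A (0.59 ± 0.06) and RPL32 (0.57 ± 0.08) behaved alike. Ribosomal protein genes have many processed pseudogenes in the genome, so reads may be split between copies and single levels are uncertain.

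Host genes of small nucleolar RNAs (snoRNAs) rose in part. These genes carry in their introns the small RNAs that guide rRNA modification, and some of their spliced RNAs are known to begin with such a pyrimidine run. Of 16 tested 9 rose and 0 fell (median 0.42), 8 had an interaction called above 0, and in MYC-OFF 3 rose (median 0.06). GAS5 (ENSG00000234741, chr1:173858559-173868882, minus strand), a host gene that accumulates when growth stops, ran at 202 to 319 (median 233) TPM early and 563 to 1195 (median 824) TPM late (1.71 ± 0.13, adjusted p = 6.71e-08), with MYC-OFF medians of 265 and 322 TPM. ZFAS1 rose from a median of 76.8 TPM (65.4 to 92.1) to 199 TPM (146 to 312) (1.44 ± 0.14). No late library of either reached down to the early range. EPB41L4A-AS1 (1.11 ± 0.11) and SNHG32 (1.10 ± 0.14) also rose, as did TAF1D (0.66 ± 0.09), which encodes an RNA polymerase I factor and hosts small nucleolar RNAs too.

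A start at C followed by at least 4 pyrimidines was found in 46 of 62 ribosomal protein genes with a listed start (74.2%) and in 4 of 14 snoRNA hosts (28.6%), against 7.62% of all genes tested, 11.8% of genes called higher and 5.15% of genes called lower. The windows below run from 10 bases before the RefSeq start to 15 bases from it, with the pyrimidine run that begins at the start in capitals, for RPL12 (chr9:127451392-127451416, minus strand), RPS6 (chr9:19380222-19380246, minus strand), ZFAS1 (chr20:49278632-49278656, plus strand) and SNHG32 (chr6:31834906-31834930, plus strand).
RPL12: cgatttccggCCTCTCggctttcgg
RPS6: gaagttggccCTCTTTTCCgtggcg
ZFAS1: gccattcgttCTTTCgcgtctgcgg
SNHG32: cattttagttCTTTTTgcgaagtgg

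Splicing factors fell as a group in MYC-ON. Of 41 listed genes 30 fell (73.2%, against 33.3% of all genes) and 3 rose (7.32%, against 17.7%), 17 of them without overlap. The median was -0.45 (-0.46 in replicate 1 alone), and the interaction was called below 0 for 27 and above 0 for 3. In MYC-OFF 3 fell and 0 rose (median -0.05). The mean level per library was 7.42 to 7.53 on log2 early, above the MYC-OFF range of 6.95 to 7.07, and 6.86 to 7.22 late, across the MYC-OFF range of 6.89 to 7.04. SRSF2 (ENSG00000161547, chr17:76734115-76737333, minus strand), a serine and arginine rich factor that reads exonic enhancers, went from 329 to 546 (median 407) TPM to 112 to 196 (median 177) TPM (-1.31 ± 0.10, adjusted p = 6.72e-08). SRSF1 fell from a median of 301 TPM (286 to 351) to 126 TPM (108 to 186) (-1.24 ± 0.09) and SRSF6 from a median of 114 TPM (91.3 to 145) to 45.2 TPM (35.6 to 60.4) (-1.28 ± 0.11). All 3 had late libraries wholly below early ones. U2AF1, which reads the 3′ splice site, had the fitted change -1.29 ± 0.29 with wide and overlapping values (34.3 to 131 (median 93.4) TPM early, 16.6 to 84.1 (median 36.2) TPM late), and a near-identical copy of the gene makes its level uncertain.

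Heat shock genes fell too. Of 20 chaperone genes 15 fell (75%, against 33.3% of all genes) and 0 rose, and 18 fell without the 3 biased libraries. The median was -0.45 with all libraries, in replicate 1 and without those 3, and 12 genes had an interaction called below 0. In MYC-OFF 1 fell and 0 rose (median -0.03). HSPA1A (ENSG00000204389, chr6:31815543-31817946, plus strand), the stress-induced HSP70, ran at 33.2 to 60.6 (median 43.4) TPM early and 4.81 to 25.9 (median 5.79) TPM late (-2.34 ± 0.27, adjusted p = 2.88e-06), with no overlap. In MYC-OFF its median was 57.4 TPM early and 61.8 TPM late, and the conditions differed by -2.55 in their change. HSPA1B, its near-identical neighbour, fell from a median of 72 TPM (55.5 to 95.9) to 15.6 TPM (9.99 to 45.5) (-2.01 ± 0.21), and reads may be shared between the 2 genes. DNAJA1, an HSP40 co-chaperone, fell from a median of 165 TPM (127 to 180.5) to 78.8 TPM (52.6 to 100.7) (-1.07 ± 0.12), and HSPE1, the mitochondrial HSP10, from a median of 1124 TPM (1032 to 1206) to 509.9 TPM (335 to 940.4) (-1.06 ± 0.14). HSPA1A was not on a steady path, since MYC-ON replicate 1 peaked at 94 TPM at CT52 before it fell to 5.59 TPM at CT76.

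The heat shock element searched for, GAANNTTC on either strand, was present in 11 of 20 promoters of this list (55%) and in 6.88% of those of all genes tested. The HSPA1A promoter is shown from 130 bases before its start (chr6:31815413-31815542, plus strand), with the element, 106 bases before the start, in capitals.
HSPA1A: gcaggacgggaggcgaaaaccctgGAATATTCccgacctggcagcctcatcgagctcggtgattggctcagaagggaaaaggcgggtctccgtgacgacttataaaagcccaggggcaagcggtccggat

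**Figure D3:**
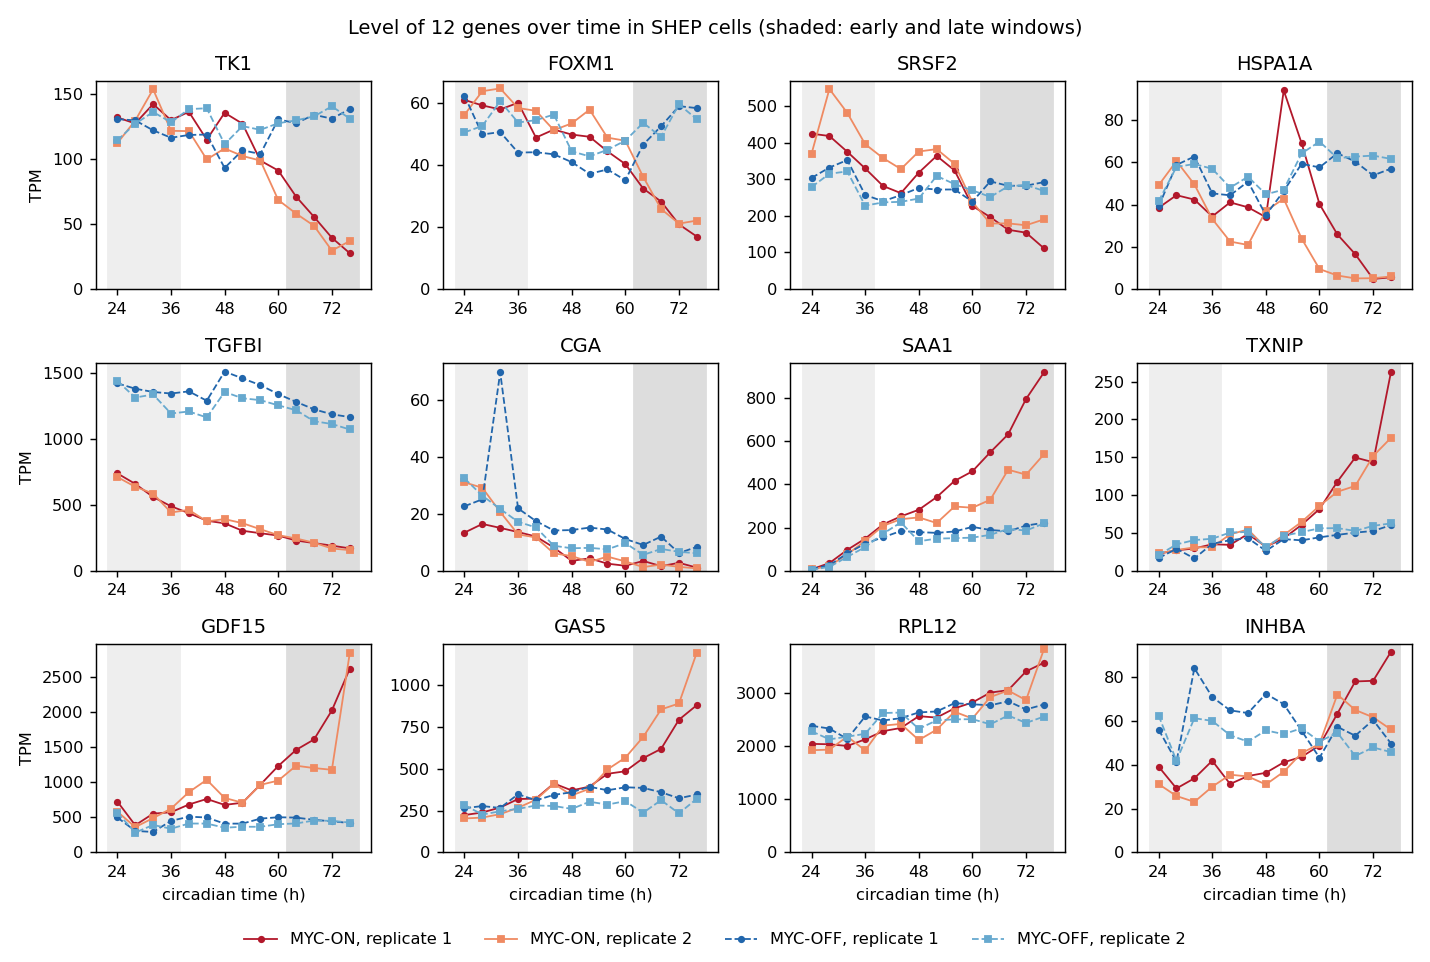
TPM of 12 genes in each SHEP library against circadian time in hours, 1 line per condition and replicate, early and late windows shaded, each panel from 0. TK1, FOXM1, SRSF2, HSPA1A, TGFBI and CGA are lower in the late window of MYC-ON (TK1 median 129.6 early and 44 late), and SAA1, TXNIP, GDF15, GAS5, RPL12 and INHBA are higher (TXNIP median 28.4 early and 147 late).

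SAA1, SAA2 and C3 were among the largest rises. SAA1 (ENSG00000173432, chr11:18266260-18269977, plus strand), an acute-phase protein, ran at 6 to 149 (median 55.4) TPM early and 329 to 918 (median 544) TPM late (3.80 ± 0.57, adjusted p = 3.52e-05), with no overlap. Its neighbour SAA2, which is close in sequence so that reads may be shared, rose from a median of 11.7 TPM (2.19 to 21.7) to 85.2 TPM (50.2 to 167) (3.04 ± 0.36). C3 (ENSG00000125730, chr19:6677704-6730562, minus strand), the central complement protein, rose from a median of 14.5 TPM (10.8 to 31.9) to 98 TPM (79.1 to 156) (2.57 ± 0.23, adjusted p = 1.92e-07). All 3 rose in MYC-OFF as well, SAA1 from a median of 44.9 to 191 TPM (2.54 ± 0.55), SAA2 by 1.77 ± 0.41 and C3 from 21.3 to 93.7 TPM (2.11 ± 0.24). The difference between the conditions did not pass the test for SAA1 (1.26, adjusted p = 0.25), SAA2 (1.27, adjusted p = 0.0829) or C3 (0.47, adjusted p = 0.308). SAA1 climbed through the series, from 6.43 TPM at CT24 to 918 TPM at CT76 in MYC-ON replicate 1 and from 6 to 539 TPM in replicate 2. In MYC-OFF it stood at 184 and 224 TPM at CT44 in replicates 1 and 2, and at 222 and 219 TPM at CT76. Its late range in MYC-OFF, 166 to 222 TPM, lay wholly below that of MYC-ON. The early window was wide in both conditions (4.14 to 125 TPM in MYC-OFF), and this spread enters the interaction test.

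Of 21 NF-kB and cytokine genes 12 rose (57.1%, against 17.7% of all genes) and 1 fell (CCL2, named after its value was seen). The median was 0.38 (0.21 in replicate 1 and 0.57 in replicate 2), and 9 rose and 2 fell without the 3 biased libraries. In MYC-OFF 4 rose and 1 fell (median 0.15). IL1A, an alarmin cytokine, rose from a median of 15 TPM (7.86 to 24.8) to 54.6 TPM (35.3 to 72.8) (1.87 ± 0.21, adjusted p = 1.66e-06). BIRC3, an NF-kB target that restrains cell death, rose from a median of 12.4 TPM (7.34 to 16.6) to 24.6 TPM (22 to 34.8) (1.06 ± 0.14), and SOD2, the mitochondrial superoxide dismutase, from a median of 335 TPM (238 to 514) to 711 TPM (575 to 989) (1.06 ± 0.15). CSF1, a macrophage growth factor, rose by 0.97 ± 0.13 in MYC-ON and by 1.09 ± 0.17 in MYC-OFF. The late and early ranges were apart for these 4 genes in MYC-ON.

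TXNIP (ENSG00000265972, chr1:145992435-145996579, minus strand), an arrestin-like inhibitor of glucose uptake and of thioredoxin, was 22.5 to 35 (median 28.4) TPM early and 104 to 263 (median 147) TPM late (2.34 ± 0.15, adjusted p = 2.19e-08). It rose in both series (2.47 and 2.22) without overlap, and in MYC-OFF from a median of 31.9 to 54.4 TPM (0.96 ± 0.16). MLXIPL, the glucose-responsive factor ChREBP that is known to drive TXNIP with MLX, went from a median of 0.522 TPM (0.248 to 1.05) to 1.83 TPM (1.17 to 3) (0.88 ± 0.13), a low level. Of the 5 glucose-sensing genes 4 rose (80%, against 17.7% of all genes) and 1 fell (20%, against 33.3%), with a median of 0.56. MLXIPL, counted among the 4, met the mean of at least 1 TPM asked of tested genes only through its late values. A full carbohydrate response element (the word CACGNG, 5 bases, and CACGNG again) was found in 14 promoters of the genes tested (0.138%), and TXNIP was the 1 of 4 in this list that had it. Its promoter is shown from 130 bases before the start (chr1:145996580-145996709, minus strand), with the element, 88 bases before the start, in capitals.
TXNIP: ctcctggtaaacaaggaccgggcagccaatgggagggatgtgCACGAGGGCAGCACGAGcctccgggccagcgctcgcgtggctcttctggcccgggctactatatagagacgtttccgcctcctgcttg

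Growth arrest and stress genes rose in part. Of 28 p53 targets 14 rose (50%, against 17.7% of all genes) and 6 fell (21.4%, against 33.3%), with a median of 0.29. The interaction was called above 0 for 9 and below 0 for 6, against 13.3% and 25.1% of all genes. GDF15 (ENSG00000130513, chr19:18374731-18389176, plus strand), a secreted stress cytokine, went from 359 to 722 (median 560.1) TPM early to 1174 to 2833 (median 1531) TPM late (1.68 ± 0.19, adjusted p = 1.95e-06), with MYC-OFF medians of 362 and 444 TPM. CCNG1, a p53-induced cyclin, rose from a median of 144 TPM (112 to 166) to 226 TPM (197 to 258) (0.65 ± 0.07). Neither overlapped. MDM2, the p53 ligase, had overlapping windows (0.59 ± 0.16) and was not called without the 3 biased libraries (0.24, adjusted p = 0.0991). Of 17 FOXO and quiescence genes 10 rose (58.8%) and 2 fell (11.8%), with a median of 0.31. GADD45A, a DNA damage response gene, rose from a median of 108 TPM (80.2 to 136) to 172 TPM (149 to 236) (0.73 ± 0.11), and CCNG2, a cyclin of resting cells, from a median of 5.34 TPM (4.11 to 6.27) to 9.31 TPM (7.25 to 11.7) (0.75 ± 0.10).

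The amino acid response differed between the series. Of 38 ATF4 response genes 14 rose (36.8%, against 17.7% of all genes) and 7 fell (18.4%, against 33.3%). The median was 0.31, but -0.15 in replicate 1, 0.57 in replicate 2 and 0.10 without the 3 biased libraries. ASNS, asparagine synthetase, was 50 to 84.7 (median 60.8) TPM early and 72.5 to 289 (median 158) TPM late (1.17 ± 0.25), with 0.19 in replicate 1 and 2.15 in replicate 2. DDIT3, the stress factor CHOP, showed the same split (0.62 and 2.39, fitted 1.51 ± 0.26). Both genes had overlapping windows. ATF5, a relative of ATF4, fell in both series, from a median of 34.9 TPM (23.3 to 45.5) to 10 TPM (8.5 to 15.4) (-1.58 ± 0.14, adjusted p = 2.64e-07), as did the neutral amino acid carriers SLC1A4 (-1.18 ± 0.16) and SLC7A5 (-0.77 ± 0.11). In MYC-OFF 26 of the 38 genes fell and 0 rose (median -0.26), and the interaction was called above 0 for 22 and below 0 for 2. The conditions differed by 2.03 for ASNS, which fell in MYC-OFF (-0.86 ± 0.16).

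Of 24 immediate early and feedback genes 11 rose (45.8%, against 17.7% of all genes) and 3 fell (12.5%, against 33.3%), with a median of 0.18. DUSP6, the phosphatase that restrains ERK, rose from a median of 7.78 TPM (5.89 to 10.2) to 21.1 TPM (14.5 to 22.7) (1.26 ± 0.12, adjusted p = 3.55e-07). PHLDA1 rose from a median of 10.3 TPM (7.87 to 19.8) to 24.2 TPM (19.9 to 31.2) (1.15 ± 0.14), and MAFF, a small MAF factor, from a median of 7.88 TPM (6.51 to 11.1) to 15.8 TPM (13.5 to 23.7) (0.99 ± 0.12). DUSP1, a phosphatase of stress kinases, rose from a median of 59.8 TPM (39.8 to 69.3) to 117 TPM (69.7 to 201) (0.93 ± 0.15). For each of the 4 the lowest late library was above the highest early one. In MYC-OFF 0 of the 24 rose and 1 fell, and the interaction was called above 0 for 10 and below 0 for none.

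Among called genes with a mean of at least 5 TPM, CGA and DIO2 fell most, followed by HSPA1A described above. CGA (ENSG00000135346, chr6:87085498-87095106, minus strand), the shared alpha subunit of the glycoprotein hormones, ran at 12.8 to 31.1 (median 15.8) TPM early and 0.818 to 3.43 (median 1.48) TPM late (-2.82 ± 0.21, adjusted p = 5.26e-08). CGB8, a chorionic gonadotropin beta gene with near-identical copies beside it, fell from a median of 47.7 TPM (27 to 81.6) to 8.92 TPM (4.37 to 15.4) (-2.24 ± 0.17). DIO2, which activates thyroid hormone, fell from a median of 64.3 TPM (30.9 to 226) to 12.3 TPM (8.74 to 22.9) (-2.41 ± 0.31). The windows of each were apart, and in MYC-OFF all 3 also fell (CGA -1.72 ± 0.20, CGB8 -1.25 ± 0.16, DIO2 -1.67 ± 0.33). IGFN1 fell alike in MYC-ON (-1.87 ± 0.22) and MYC-OFF (-1.74 ± 0.16). CGA and IGFN1 met the mean of at least 5 TPM only through their early values.

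Other steep falls were small or not called in vehicle-treated cells. ACKR3, a scavenging chemokine receptor, fell from a median of 8.61 TPM (5.64 to 16.8) to 1.01 TPM (0.552 to 2.33) (-2.26 ± 0.21), while its MYC-OFF medians of 90.9 and 72.8 TPM did not pass the test. LFNG, the glycosyltransferase that modifies Notch, fell from a median of 9.02 TPM (7.42 to 15) to 1.41 TPM (0.588 to 3.91) (-2.07 ± 0.19), and the Notch target HES1 rose from a median of 2.74 TPM (2.46 to 4.04) to 6.63 TPM (4.8 to 10.8) (0.94 ± 0.13). Most of the 11 Notch genes tested did not change, with 2 higher (18.2%, against 17.7% of all genes), 1 lower (9.09%, against 33.3%) and 8 not called. The LFNG medians in MYC-OFF were 16.7 and 16.1 TPM. RPS6KA4, a stress-activated histone kinase, fell from a median of 81.3 TPM (75 to 94.5) to 25.1 TPM (13.4 to 42.4) (-1.67 ± 0.18), and PLEKHG4 from a median of 68.2 TPM (50.4 to 73.6) to 19.6 TPM (11.7 to 32) (-1.72 ± 0.15). These had no overlap. AC025257.1 (-2.24 ± 0.54) and AC099329.1 (-2.06 ± 0.60), both long non-coding RNAs, also ranked among the falls, with overlapping libraries. ACKR3, LFNG and AC025257.1 met the mean of at least 5 TPM asked of named genes only through their early values. The fall of AC099329.1 was -3.90 in replicate 2 and -0.22 in replicate 1 and was not called without the 3 biased libraries (adjusted p = 0.0767).

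Several genes at low early levels rose, and they met the mean of at least 5 TPM asked of named genes only through their late values. LINC02154 (ENSG00000235385, chrX:13266041-13303452, minus strand), a long non-coding RNA, was 2.01 to 4.25 (median 2.66) TPM early and 14.8 to 46 (median 22.5) TPM late (2.79 ± 0.17, adjusted p = 2.13e-08), while in MYC-OFF its median went from 3.9 to 2.61 TPM. NECTIN3-AS1, antisense to NECTIN3, rose from a median of 1.92 TPM (1.13 to 3.5) to 10.4 TPM (6.84 to 13.9) (1.87 ± 0.14). AC003092.1 (2.11 ± 0.17) and AC093866.1 (2.05 ± 0.17), also long non-coding RNAs, rose from medians of 2.4 and 1 TPM to 14.4 and 7.86 TPM. AC093866.1 also rose in MYC-OFF (0.59 ± 0.14), while NECTIN3-AS1 did not pass the test there (0.05 ± 0.15) and AC003092.1 was too low to be tested. All 4 had MYC-ON late values wholly above early ones. The strand setting of the counting is not given in the sources used here, so reads of NECTIN3-AS1 and of NECTIN3 may not be told apart.

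INPP5D, the lipid phosphatase SHIP1, rose from a median of 4.68 TPM (3.42 to 6.15) to 18.2 TPM (13.5 to 31.9) (1.84 ± 0.15, adjusted p = 8.25e-08) and by 0.40 ± 0.10 in MYC-OFF. SPANXC, a cancer-testis gene with near-identical family members, rose from a median of 4.01 TPM (1.9 to 4.96) to 16 TPM (11.9 to 35.9) (2.00 ± 0.18), and in MYC-OFF its change did not pass the test (-0.21 ± 0.21). Both were apart between the windows. INPP5D, SPANXC and TGFB2-OT1 also met the mean of at least 5 TPM asked of named genes only through their late values. TGFB2-OT1 was listed at 0 in all 8 early libraries and at 3.16 to 54.6 (median 12.6) TPM late, so no fold is given. It lies at chr1:218442626-218443996 within the TGFB2 gene on the same strand, so reads of the 2 genes cannot be told apart.

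Matrix genes moved in both directions. Of 28 matrix and protease genes 12 fell (42.9%, against 33.3% of all genes) and 6 rose (21.4%, against 17.7%), with shares near those of all genes (median -0.15, but 0.01 once the GC trend of each library was removed), and the interaction was called below 0 for 15 and above 0 for 7. TGFBI (ENSG00000120708, chr5:136028988-136063818, plus strand), a matrix adhesion protein induced by TGF-beta, ran at 442 to 739 (median 611) TPM early and 156 to 245 (median 200.03) TPM late (-1.60 ± 0.11, adjusted p = 4.33e-08). In MYC-OFF it was far higher, at 1351 and 1177 TPM. TNC, tenascin C, fell from a median of 53.8 TPM (36.3 to 77.5) to 17.8 TPM (12.1 to 27) (-1.57 ± 0.10) and LOX, the collagen cross-linker, from a median of 17.8 TPM (14.6 to 18.7) to 7.73 TPM (5.4 to 10.2) (-1.09 ± 0.10). No late library overlapped an early one in these 3 genes. CCN1, a secreted YAP target, rose from a median of 244 TPM (228 to 364) to 409 TPM (381 to 566) (0.70 ± 0.10). Of 26 YAP and TEAD genes 5 rose (19.2%) and 8 fell (30.8%), shares near those of all genes.

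Of 16 collagen chains 5 fell (31.2%) and 2 rose (12.5%), shares also near those of all genes, with a median of -0.12 that was 0.17 in replicate 1 and -0.40 in replicate 2. Without the 3 biased libraries 5 fell and 6 rose (median 0.10), so the direction of the list as a whole depended on those libraries. COL5A1 nevertheless fell in both series, from a median of 20.5 TPM (13.1 to 26.1) to 6.76 TPM (5.05 to 7.22) (-1.45 ± 0.11), while it rose in MYC-OFF from a median of 95.7 to 138 TPM (0.58 ± 0.08). COL1A1 fell from a median of 1068 TPM (857 to 1280.1) to 507 TPM (329 to 749) (-1.08 ± 0.15), -0.63 in replicate 1 and -1.54 in replicate 2. COL13A1 rose by 1.005 ± 0.15 with overlapping windows.

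Actin and SRF genes fell in both conditions. In MYC-ON 13 of 18 fell (72.2%, against 33.3% of all genes) and 1 rose (median -0.30). In MYC-OFF 12 fell (6.87% of all genes fell there) and 1 rose (median -0.26), and the interaction was called above 0 for 3 and below 0 for 4. TPM1, a tropomyosin, fell from a median of 447 TPM (316 to 562) to 234 TPM (190.2 to 273) (-0.91 ± 0.10) and TAGLN, a smooth muscle actin cross-linker, from a median of 170.1 TPM (141 to 195) to 94.5 TPM (90.4 to 117) (-0.78 ± 0.07), without overlap. CNN1, calponin, was low and fell in both conditions (-1.24 ± 0.20 and -1.63 ± 0.21). ACTA2, smooth muscle actin, was the member that rose, from a median of 77.6 TPM (64.5 to 91.6) to 119 TPM (99.4 to 142) (0.60 ± 0.07).

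Among the TGF-beta and activin genes 3 of 19 rose (15.8%) and 8 fell (42.1%, against 33.3% of all genes), with a median of -0.16. INHBA, the activin A subunit, rose from a median of 30.6 TPM (23.1 to 41.9) to 68.7 TPM (56.2 to 91.8) (1.14 ± 0.09, adjusted p = 8.25e-08), and FST, the activin antagonist follistatin, from a median of 1.26 TPM (0.797 to 2.04) to 2.84 TPM (2.25 to 5.37) (0.79 ± 0.14). The inhibitory SMAD7 fell from a median of 6.89 TPM (5.3 to 10.7) to 3.16 TPM (2.2 to 3.99) (-0.99 ± 0.13). The windows were apart in each. MYC-OFF medians of INHBA were 60.7 and 51.6 TPM, so the early MYC-ON range lay below both medians.

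Of 28 cholesterol synthesis genes 15 fell (53.6%, against 33.3% of all genes) and 1 rose in MYC-ON, with a median of -0.29. The median was -0.13 in replicate 1 (-0.11 for all genes) and -0.50 in replicate 2, and with the GC trend removed 12 fell and 2 rose (median -0.08). In MYC-OFF 20 of the 28 fell and 1 rose (median -0.33). LSS, lanosterol synthase, fell from a median of 95.3 TPM (87.1 to 107) to 49.3 TPM (32.6 to 74) (-1.01 ± 0.11). SREBF1, the regulator of lipid synthesis, fell from a median of 49.4 TPM (43.7 to 58.2) to 27.9 TPM (21.2 to 30.9) (-0.90 ± 0.09) and FASN, fatty acid synthase, from a median of 544 TPM (481 to 651) to 269 TPM (199 to 406) (-1.003 ± 0.11). None of these overlapped. Of 17 fatty acid synthesis genes 11 fell (64.7%) and 2 rose (median -0.29), and with the GC trend removed 8 fell and 3 rose (median -0.16). Glycolysis genes fell in 14 of 24 (58.3%) and rose in 4 (median -0.30, with 12 lower and 0 higher in MYC-OFF). With the GC trend removed 9 glycolysis genes fell and 5 rose in MYC-ON (median -0.12). The glucose carrier SLC2A1 fell from a median of 216 TPM (160.0 to 269.5) to 111 TPM (78.6 to 143) in MYC-ON (-0.998 ± 0.11) and from a median of 262 to 149 TPM in MYC-OFF (-0.74 ± 0.13).

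The ferritin chains, which store iron, took a growing share. FTL rose from a median of 3703 TPM (2825 to 4019.9) to 6304 TPM (4414 to 7344) (0.75 ± 0.08, adjusted p = 6.95e-07) without overlap, with MYC-OFF medians of 2737 and 2474 TPM that did not pass the test. FTH1 was 2732 to 3962 (median 3583) TPM early and 3909 to 7692 (median 5544) TPM late (0.65 ± 0.12), with overlap, and rose in MYC-OFF too (0.44 ± 0.05). Both genes have processed copies in the genome, so reads may be split. NDRG1, a hypoxia and differentiation gene, rose from a median of 16.2 TPM (11.7 to 18.7) to 33.6 TPM (22.7 to 48.2) (1.02 ± 0.10). Of 28 hypoxia response genes 10 rose and 10 fell (35.7% each, against 17.7% and 33.3% of all genes). SAT1, the enzyme that starts polyamine breakdown, rose from a median of 7.27 TPM (5.98 to 8.25) to 16.1 TPM (12.3 to 17.6) (1.03 ± 0.08), opposite to the synthetic enzyme ODC1.

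Of the 16 clock genes tested 3 rose and 5 fell late in MYC-ON (18.8% and 31.2%, against 17.7% and 33.3% of all genes), with a median of 0.00. RORA, an activator of ARNTL, rose from a median of 1.47 TPM (0.984 to 2) to 3.25 TPM (2.63 to 4.04) (0.77 ± 0.10) without overlap. ARNTL, the BMAL1 gene of the positive arm, was 1.5 to 2.95 (median 2.19) TPM early and 2.7 to 5.2 (median 3.42) TPM late (0.55 ± 0.12, adjusted p = 0.00122), still far below its MYC-OFF medians of 14.3 and 14.9 TPM. CRY1, a repressor, was 17.3 to 27.7 (median 21.2) and 27.6 to 36.3 (median 30.7) TPM (0.52 ± 0.09). The last 2 genes overlapped by little.

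TEF, a D-box output factor, was the only clock gene that fell without overlap, from a median of 5.45 TPM (3.41 to 7.57) to 2.32 TPM (1.78 to 2.95) (-0.90 ± 0.14), and it fell in MYC-OFF (-0.72 ± 0.11). PER2 (-0.56 ± 0.16), CRY2 (-0.57 ± 0.15), NR1D2 (-0.21 ± 0.07) and BHLHE40 (-0.23 ± 0.08) fell with overlap, and CRY2 was not called without the 3 biased libraries (adjusted p = 0.0608). In windows exactly 48 h apart PER2 (-0.21, adjusted p = 0.316), CRY2 (-0.25, adjusted p = 0.304) and NR1D2 (-0.22, adjusted p = 0.0875) were not called. CLOCK (-0.27 ± 0.12), ARNTL2 (0.07 ± 0.10), PER1 (0.08 ± 0.35), PER3 (-0.08 ± 0.15), NR1D1 (0.07 ± 0.07), DBP (-0.06 ± 0.13), NFIL3 (0.26 ± 0.16) and BHLHE41 (0.12 ± 0.15) did not pass the test. PER1 ranged from 11.6 to 67.9 TPM within the early window alone.

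**Figure D4:**
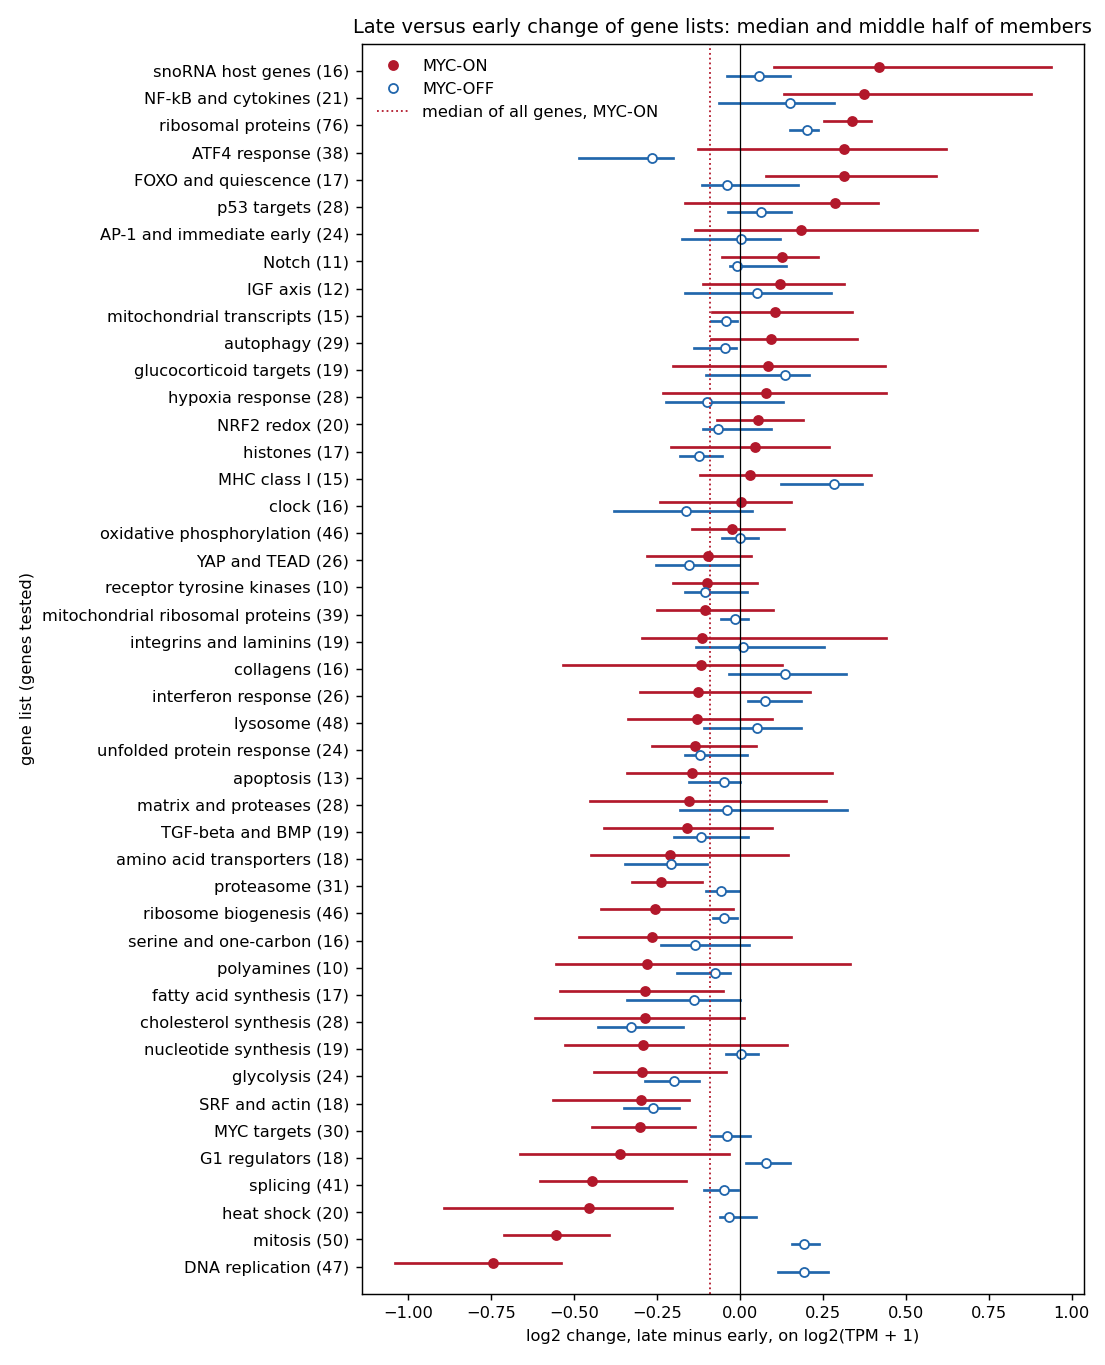
Median late minus early change (dot) and interquartile range of the members (line) of each gene list with at least 10 genes tested, on log2(TPM + 1), for MYC-ON (filled) and MYC-OFF (open), with the number of genes tested in brackets and the MYC-ON median of all genes (-0.09) dotted. The DNA replication and mitosis lists stand at -0.74 and -0.55 in MYC-ON and at 0.19 in MYC-OFF, and the snoRNA host list at 0.42 and 0.06.

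Vehicle-treated cells changed in fewer genes over the same hours. In MYC-OFF 1672 of 14280 genes were called (11.7%), 691 higher (4.84%) and 981 lower (6.87%), and 1.5-fold changes were called for 65 (0.455%) and 89 (0.623%). Of the genes called in both conditions 766 moved in the same direction and 251 in opposite directions. The interaction calls numbered 5521, and 4144 of them (75.1%) were also called without replicate 2 CT64, CT68 and CT72. Among genes with a mean of at least 5 TPM, and leaving out TGFB2-OT1, which was at 0 in all early MYC-ON libraries, the largest differences above 0 were those of LINC02154 (3.25), SPANXC (2.21), ASNS (2.03) and LINC00674 (2.01), a transcribed pseudogene that fell in MYC-OFF (-1.55 ± 0.32) and did not pass the test in MYC-ON (0.46 ± 0.29). The largest below 0 were those of HSPA1A (-2.55), DPT (-2.36), AC025257.1 (-2.07), COL5A1 (-2.02) and HSPA1B (-2.02). The difference of AC025257.1 was not called without the 3 GC-biased libraries (-1.69). DPT, the matrix protein dermatopontin, fell in MYC-ON from a median of 6.36 TPM (3.77 to 9.23) to 2.88 TPM (1.81 to 4.28) (-0.83 ± 0.14), with overlap, and rose in MYC-OFF from a median of 2.76 to 10.7 TPM (1.53 ± 0.15).

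Mesenchymal identity genes moved in both directions, with 3 of 10 markers higher (17.7% of all genes were) and 4 lower (33.3% of all genes), and a median of -0.04. CD44, a hyaluronan receptor, rose from a median of 241 TPM (192 to 284) to 368 TPM (314 to 493) (0.68 ± 0.07) without overlap, while it fell in MYC-OFF (-0.44 ± 0.08). PRRX1, a mesenchymal homeobox factor, rose with overlap (0.92 ± 0.18), and SNAI2, an epithelial to mesenchymal transition factor, was 11.4 to 56.2 (median 44.8) TPM early and 12.4 to 26.5 (median 20.1) TPM late (-0.81 ± 0.29, adjusted p = 0.025), a call lost without the 3 biased libraries (adjusted p = 0.0544).

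Windows set exactly 48 h apart (CT72 and CT76 against CT24 and CT28) called 1686 genes higher and 3809 lower, and 5182 of the 7291 main calls (71.1%) were also called there with the same sign. A linear trend over all 14 CTs with 24 h terms called 7047 of them (96.7%). When each window and series was reduced to its mean, leaving 2 values against 2, 2634 (36.1%) were still called.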

How the data were processed

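RNA-seq of poly-A RNA was analysed from 16 MYC-ON libraries and 16 MYC-OFF libraries of SHEP N-MYC-ER. The deposited TPM values were made by the authors with Salmon 1.3.0 on Gencode 35 transcripts (GRCh38), summed to genes with Tximport 1.12.3 and named with Ensembl 101. TPM keeps no depth, so no counting error could be given, and a scaled total means that a large rise in some genes lowers the rest. The study's own count model could not be used on TPM.

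From these values log2(TPM + 1) was fitted with limma 3.58.1 (R 4.3.3, intensity trend on) for every gene whose TPM averaged 1 or more, late minus early, with the replicate number as a block, and p-values were adjusted by Benjamini-Hochberg over all genes tested. The interaction used 32 libraries with a block within each condition. Fold changes on this scale understate low genes. A call needed an adjusted p of at most 0.05, a change of at least 0.15 (0.66 for 1.5-fold) and the same sign in replicate 1 alone. Replicate numbers mark separate time series per the labels; same-numbered MYC-ON libraries of the 2 windows deviated together with a correlation of 0.12. GC content and positions came from Gencode 44 (GRCh38), promoters from RefSeq. The fit was tested on simulated data.

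Members, gene lists and tests were chosen with earlier results of these data known. Genes named were MYCN and MYC, the clock genes, the 12 largest called changes per direction with a mean TPM of at least 5, up to 4 called members per list with the largest change, and the 5 largest interactions per direction; a few others are said to be chosen after their values were seen. Alternatives were other pseudocounts, filters, scalings, GC corrections, windows, no block, and leaving out each replicate or the 3 GC-biased libraries. Some items are not reported here.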

Additional observations from a re-analysis of the deposited data

Results flagged for a closer look

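In 14 of 254 groups of 8 libraries tested over 127 genes, 1 library stood far from the others by Dixon's criterion, against 12.7 expected by chance (about 1 in 20), 5 of them early and 9 late and 1 in a GC-biased library. In the late window the highest values were MYCN at 515 TPM (next 375, replicate 2 CT76), SNHG32 at 343 TPM (next 236, replicate 2 CT76), SRSF1 at 186 TPM (next 143, replicate 1 CT64), U2AF1 at 84.1 TPM (next 44.5, replicate 1 CT76), TXNIP at 263 TPM (next 176, replicate 1 CT76), IGFN1 at 4.82 TPM (next 3.18, replicate 2 CT72), AC025257.1 at 14.9 TPM (next 6.65, replicate 1 CT72) and FST at 5.37 TPM (next 3.37, replicate 1 CT68). SAT1 had a low late value of 12.3 TPM (next 15.1, replicate 1 CT68). In the early window MYC was high at 6.45 TPM (next 2.14, replicate 1 CT24), RPS6KA4 at 94.5 TPM (next 83.5, replicate 2 CT28), LINC02154 at 4.25 TPM (next 2.78, replicate 1 CT36) and CLOCK at 16.1 TPM (next 11.9, replicate 2 CT24), and ODC1 was low at 476 TPM (next 596, replicate 2 CT36).

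The change differed between MYC-ON and MYC-OFF by the interaction test in 5521 genes. Among genes with a mean of at least 5 TPM and no window at 0 in every library, the largest differences on log2 were LINC02154 (3.25), SPANXC (2.21), ASNS (2.03) and LINC00674 (2.01) above 0, and HSPA1A (-2.55), DPT (-2.36), AC025257.1 (-2.07), COL5A1 (-2.02) and HSPA1B (-2.02) below 0. That of AC025257.1 was not called without the 3 GC-biased libraries (-1.69).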

How the results depend on the processing

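No called change of a named gene turned over under the alternatives run, but the medians of some lists did, among them the ATF4 response (0.31, and -0.15 without replicate 2), the collagens (-0.12, and 0.10 without the 3 GC-biased libraries) and the matrix genes. Against 2535 genes higher and 4756 lower, windows exactly 48 h apart gave 1686 higher, and window means (2 values against 2) gave 871 higher and 1805 lower, with fewer values to test. Leaving out each replicate gave 1950 to 2266 higher, 3177 to 4636 lower and 1826 to 2259 changed 1.5-fold (1665 with both), and 3609 to 4032 genes with a difference between the conditions (5521 with both). In MYC-OFF it gave 47 to 426 genes higher against 691, an alternative chosen after seeing the data. Without the replicate block the counts were 2391 higher, 4521 lower, 1657 changed 1.5-fold and 5008 different between the conditions, so the pairing moved no count by over 1.5 times. Of the recomputed changes of named genes 2777 kept their side of the threshold and direction, 131 fell below it and 5 passed it. Of the differences between conditions 1042 kept it and 161 fell below it. Of the list medians 530 moved by less than the spread between replicates and 133 by more, and the cause was not tested. Beside the calls lost without the GC-biased libraries, ASNS, ARNTL and AC025257.1 were not called in replicate 1 alone, FTH1, NR1D2 and TSC22D3 not in replicate 2 alone, PER2, BHLHE40 and SNAI2 in neither alone, and 9 of the genes in the text, MYC, MDM2, SNAI2, U2AF1, PER2, CRY2, NR1D2, AC025257.1 and AC099329.1, not in windows 48 h apart. The use of TPM limits precision for low genes, whose depth is unknown.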

Other observations

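Autophagy genes moved in both directions in MYC-ON, with 9 of 29 higher (31%, against 17.7% of all genes) and 4 lower (13.8%, against 33.3%). The median was 0.09, and without the 3 GC-biased libraries it was -0.01 with 9 higher and 6 lower, so the direction of the list was not kept. In MYC-OFF 0 rose and 5 fell. NBR1, a receptor for cargo of autophagy, rose from a median of 23.8 TPM (20.9 to 24.8) to 38.4 TPM (35.1 to 42.5) (0.71 ± 0.06), and WIPI1, which acts at the forming autophagosome, from a median of 23.9 TPM (22.2 to 30.6) to 42.9 TPM (33.5 to 55.5) (0.77 ± 0.09), both without overlap. Of 48 lysosome genes 22 were lower (45.8%) and 7 higher (14.6%) in MYC-ON (median -0.13), but with the GC trend removed 15 were lower and 13 higher (median 0.02). In MYC-OFF 4 were lower and 13 higher.

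MHC class I genes were mixed in MYC-ON, 6 of 15 higher (40%) and 3 lower (20%) with a median of 0.03, and 10 rose and 1 fell in MYC-OFF (median 0.28). HLA-B, a class I heavy chain whose reads are affected by allelic variation, rose from a median of 53.9 TPM (45.4 to 60.9) to 113 TPM (86.7 to 161) (1.121 ± 0.12) in MYC-ON and by 0.54 ± 0.09 in MYC-OFF. LCN2, an acute-phase iron binder, was low and rose in both conditions (1.28 ± 0.23 and 1.56 ± 0.16).

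Of 19 glucocorticoid targets 7 rose (36.8%) and 4 fell (21.1%) in MYC-ON (median 0.08, but -0.02 in replicate 2). TSC22D3, a classical dexamethasone target, was 12.3 to 106 (median 77.5) TPM early and 92.1 to 262 (median 135) TPM late (1.36 ± 0.42), with overlap, and CRISPLD2 fell from a median of 10.1 TPM (6.95 to 13.1) to 3.03 TPM (1.17 to 4.41) (-1.54 ± 0.17).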
